A study of Rattus norvegicus with 13 samples.

Results

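Mammary carcinomas that arose after irradiation before puberty were compared with carcinomas that arose after irradiation past puberty, gene by gene. Of the 13 arrays of the series, 10 entered the comparison, chosen by the titles of the samples: 4 carcinomas of rats irradiated at 3 weeks of age, called IR-3W, and 6 carcinomas of rats irradiated at 7 weeks of age, called IR-7W. The 3 arrays of normal mammary tissue were not used here. All 10 carcinomas came from female Sprague-Dawley rats, an outbred stock prone to mammary tumours. Every rat had been exposed once to 2 Gy of 137Cs gamma rays over the whole body, at 0.6 Gy per minute. The AIN-76A feed with 23.5% corn oil, given past 9 weeks of age, was common to both groups, and so was the age of 50 weeks at which palpable tumours were removed. Because the age at collection was the same, the time between irradiation and collection differed between the groups along with the age at irradiation, and the comparison cannot tell these apart. RNA was taken from frozen pieces of tumour, so each array holds tumour cells together with stroma, vessels and immune cells. In such bulk tissue, fewer cells of a type and less RNA per cell cannot be told apart. The labels do not say that the arrays of a group came from separate rats, and each p-value then reflects only how much these samples scatter, possibly for technical reasons.

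A mammary carcinoma consists of epithelial cells in a stroma of fibroblasts, which build a matrix of fibrillar collagens. Small leucine-rich proteoglycans, among them decorin, biglycan, lumican, osteoglycin, osteomodulin and asporin, coat the collagen fibrils and control their thickness. The luminal epithelium of the gland reads oestrogen, progesterone and prolactin through their receptors. Oestrogen acts on it largely through amphiregulin, a growth factor of the ErbB receptors, and the gland acquires most of its ducts under these hormones at puberty.

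Values are given as the log2 of the fluorescence signal minus the 75th percentile of the same array, so that a gene at 0 has exactly that percentile. A difference is the mean of the IR-3W carcinomas minus the mean of the IR-7W carcinomas, with its standard error (SE) from limma, a linear model fitted to all genes. "Well above background" is the scanner software's own call for a spot. Between 58.0 and 71.0% of the spots of an array were well above background, and the 75th percentile of the signal lay between 276 and 1242. IR-3W 3 was the dimmest array on both measures, and its spike-in controls, synthetic RNAs added during labelling, stood 3.21 above its 75th percentile against 0.10 to 1.16 on the other 9 arrays. Of 18 luminal epithelial markers tested, 15 were well above background on all 10 arrays, and Epcam, an adhesion molecule of epithelial cells, lay between 4.90 and 6.50 on every one.

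The arrays lay on 3 slides, and all of them were read on the same scanner. Slide 1 held IR-7W 2, 3, 4 and 6. Slide 2 held IR-3W 1 and 2 with IR-7W 1 and 5, and slide 3 held IR-3W 3 and 4. Slide 2 alone allows both groups to be compared on one slide, so differences within it are given beside those over all arrays. The IR-3W carcinomas were less alike than the IR-7W carcinomas. The median SD of a gene was 0.60 in IR-3W and 0.43 in IR-7W, and 67.7% of genes had the larger SD in IR-3W. Across genes, none of which is an independent replicate, 2 arrays of IR-3W correlated at 0.876 to 0.961 (Pearson's r) and 2 arrays of IR-7W at 0.926 to 0.968. IR-3W 3 stood farthest from the others (mean r of 0.893 to the other IR-3W arrays), and no IR-3W array correlated more with its own group than with the IR-7W arrays. The mean r to the IR-7W arrays and to the other IR-3W arrays was 0.943 and 0.917 for IR-3W 1, 0.928 and 0.918 for IR-3W 2, 0.895 and 0.893 for IR-3W 3, and 0.934 for both in IR-3W 4.

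Of 25204 genes tested, 26 passed at an adjusted p under 0.05 in limma, which is 0.103% of them. Among these, 22 were higher in IR-3W carcinomas (0.0873% of all genes) and 4 were lower (0.0159%), and 14 carried a gene symbol, 12 higher and 2 lower. The 12 were Fgfbp1, Il24, Aspn, Ogn, Col3a1, Aox1, Omd, Timp1, Bgn, Fxyd1, Id3 and Nol3, and the 2 were Popdc2 and Magix. The adjusted p-values were all close to the threshold, from 0.0306 to 0.0477. The log2 differences of the 19 genes measured in both groups ran in size from 1.83 to 3.50, and for the other 7 only a bound can be given, since no array of 1 group was well above background. A gene was tested if well above background on at least 4 of the 10 arrays, so these 7 entered only through their brighter group. All 26 separated the groups without overlap, as did 734 genes in all (2.91% of those tested, with 1.54% above and 1.37% below in IR-3W). Lack of overlap fixes the direction within slide 2 as well, so that the 26 kept it there adds no support. Slides 1 and 3 each held a single group, and in limma 0 genes passed with the slide as a fixed block (842 at an unadjusted p under 0.05) and 0 passed within the 4 arrays of slide 2 (657 at that p). At an unadjusted p under 0.05 there were 2762 genes, 11.0% of those tested, with 5.66% higher in IR-3W and 5.30% lower. The count of 26 depended on single carcinomas. It was 0 without IR-3W 4, IR-7W 2, IR-7W 3 or IR-7W 4, 1 without IR-3W 2, 7 without IR-3W 3, 6 without IR-7W 5, 6 without IR-7W 6 and 57 without IR-7W 1. Without IR-3W 1 it was 316, with 155 higher and 161 lower, and all 26 were among them. Wherever a gene is said below to pass without some array, that fit describes the arrays left and is no test of the group. Of the 14 named genes, Id3 passed in 5 of the 10 fits that left out 1 array, and the others passed in 2 or 3, with adjusted p-values up to 0.173. All 14 kept their direction in these fits, which was fixed in advance, since groups without overlap cannot turn when 1 array is left out. The difference ran from 2.57 to 3.22 for Col3a1, from 3.15 to 3.71 for Ogn and from 1.90 to 2.05 for Id3.

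Ogn, Omd and Aspn, which encode osteoglycin, osteomodulin and asporin, are neighbours in the rat genome and all lie within the span of Cenpp, a kinetochore gene. The 250 bases before the start of each are shown because the 3 genes were higher together, and they are taken from RefSeq on assembly GRCr8, minus strand, at chr17:15258996-15259245 for Ogn, chr17:15274871-15275120 for Omd and chr17:15310470-15310719 for Aspn. Both strands were searched for TATAAA, the core of a TATA box, and for TGANTCA, the site read by AP-1 factors, and matches are in capitals.
Ogn: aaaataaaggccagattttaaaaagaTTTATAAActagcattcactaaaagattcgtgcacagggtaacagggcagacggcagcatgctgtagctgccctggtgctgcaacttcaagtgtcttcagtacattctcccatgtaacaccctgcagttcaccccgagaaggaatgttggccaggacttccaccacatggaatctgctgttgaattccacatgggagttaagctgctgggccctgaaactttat
Omd: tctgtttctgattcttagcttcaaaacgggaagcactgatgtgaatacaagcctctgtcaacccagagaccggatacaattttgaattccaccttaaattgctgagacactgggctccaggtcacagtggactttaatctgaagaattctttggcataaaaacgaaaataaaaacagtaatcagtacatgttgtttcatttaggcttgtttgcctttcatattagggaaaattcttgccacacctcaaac
Aspn: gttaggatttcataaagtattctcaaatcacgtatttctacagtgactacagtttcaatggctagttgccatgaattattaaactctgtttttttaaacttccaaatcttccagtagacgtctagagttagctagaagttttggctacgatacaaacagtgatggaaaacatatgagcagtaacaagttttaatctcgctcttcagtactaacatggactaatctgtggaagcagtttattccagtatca
The capitals in Ogn are 2 overlapping TATAAA matches, 1 on each strand, near the far end of the window. No match to either motif was found in the windows of Omd and Aspn, and none to TGANTCA in that of Ogn. Over the same 250 bases of 33469 RefSeq promoters, TATAAA was found in 12.9% and TGANTCA in 6.34%.

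Aspn, a proteoglycan that binds collagen and transforming growth factor beta, stood at 1.52, 1.94, 0.51 and 1.49 in IR-3W 1 to 4. In the IR-7W carcinomas it ran from -3.37 through a median of -2.23 to -0.91. Aspn was therefore above the 75th percentile of the array in every IR-3W carcinoma and below it in every IR-7W carcinoma, and it rose by 3.50 ± 0.45 (SE), an 11.3-fold difference (adjusted p = 0.0439; 3.39 within slide 2). Ogn stood at 2.33, 3.17, 3.48 and 3.63 in IR-3W against a lowest, median and highest value of -1.74, -0.05 and 0.59 in IR-7W. Its groups were far from overlapping, and it rose by 3.44 ± 0.48, or 10.9-fold (adjusted p = 0.0439; 3.11 within slide 2). A second Ogn probe gave 3.87. Omd, which binds collagen in mineralising tissue, stood at -0.02, -1.36, 0.07 and -0.46 in IR-3W and at -3.90, -2.80 and -2.44 in IR-7W. It rose by 2.55 ± 0.35, or 5.86-fold (adjusted p = 0.0439; 2.37 within slide 2), with IR-3W 2 the lowest of its group but above all 6 IR-7W carcinomas. All 3 genes were well above background on all 10 arrays.

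Col3a1, the chain of type III collagen, and Bgn, the proteoglycan biglycan, were among the brightest genes of these tumours. Col3a1 stood at 7.33, 8.13, 9.27 and 8.49 in IR-3W, and at 4.87, 5.19 and 6.67 in IR-7W. The highest IR-7W value belonged to IR-7W 1, the other 5 lay at or below 5.47, and the lowest IR-3W carcinoma still exceeded it. Col3a1 rose by 2.90 ± 0.43, or 7.45-fold (adjusted p = 0.0439), and by 1.77 within slide 2, the slide that holds IR-7W 1. Bgn stood at 7.01, 7.80, 7.88 and 8.42 in IR-3W against 5.14, 5.44 and 6.23 in IR-7W. Bgn rose by 2.19 ± 0.32, or 4.55-fold (adjusted p = 0.0439; 1.58 within slide 2).

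Of 30 fibroblast and extracellular matrix genes tested, 3 passed (Ogn, Bgn and Col3a1, all higher), and 27 were higher in IR-3W at an unadjusted p under 0.05, against 5.66% of all genes. In 14 of the 30 the IR-3W carcinomas lay above all IR-7W carcinomas, against 1.54% of all genes. This list and those below were chosen with earlier results of these data known, so such shares describe a list and are no test of it. The median difference of the 30 was 1.95, where the median of all genes was -0.01. Within slide 2 the median was 1.05, and 30 of 30 genes were above 0. For the 14 genes without overlap that sign was fixed in advance, so it adds no support. Dcn, the proteoglycan decorin, stood at 5.75, 5.64, 5.28 and 5.79 in IR-3W against 3.55, 3.89 and 4.87 in IR-7W, without overlap (1.55 ± 0.27, adjusted p = 0.0657). It passed without IR-7W 1 (1.72, adjusted p = 0.0322; 0.00812 to 1 over the alternatives). Lum and Col1a1 were named after their values were seen. Lum, which encodes lumican, had a difference of 3.01 ± 0.60 (adjusted p = 0.0871) and passed without IR-3W 1 (3.29, adjusted p = 0.0489; the alternatives gave adjusted p-values from 0.00645 to 1). Col1a1, a chain of type I collagen, had 1.36 ± 0.39 (adjusted p = 0.203), and its second probe gave 2.84, so the probes disagree in size. Fbln1 (0.80), Fmod (-0.36) and Thbs1 (0.33), also named after their values were seen, were the 3 genes of the list above an unadjusted p of 0.05. Fmod, the proteoglycan fibromodulin, changed sign in 4 alternatives, among them the fixed slide block and slide 2 alone, which share an estimate. Thbs1, the matricellular protein thrombospondin, did so in 3, while Fbln1 encodes the matrix protein fibulin.

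**Figure D1:**
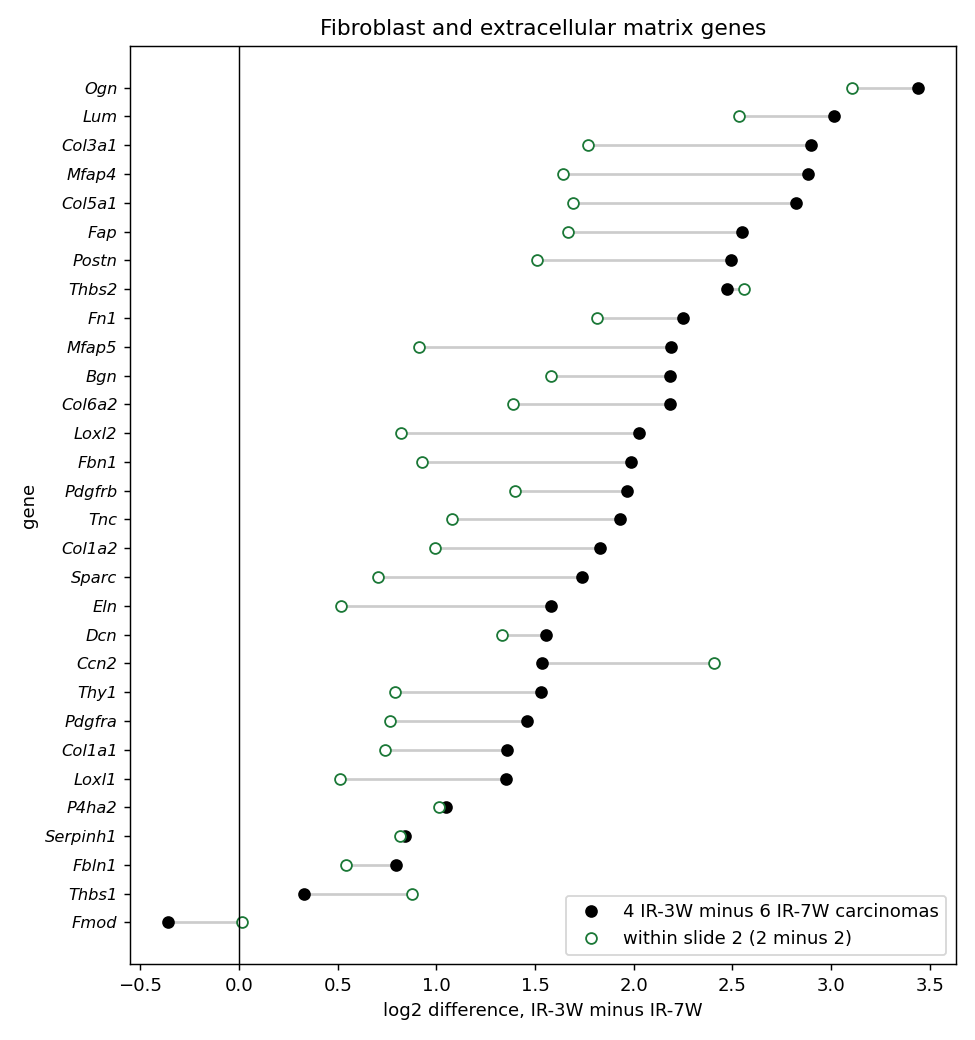
Log2 difference between IR-3W and IR-7W carcinomas (x axis) for each of the 30 fibroblast and extracellular matrix genes tested (y axis). Filled points are the means of 4 minus 6 arrays and open points the 2 minus 2 arrays of slide 2; all genes but Fmod lie right of 0 over all arrays, and most points move towards 0 within slide 2.

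The summed level of the matrix genes, which is the mean over the list of each gene's value minus its mean over the 10 arrays, was 0.42, 1.26, 0.86 and 1.94 in IR-3W 1 to 4. It ran from -1.13 to 0.15 in IR-7W, and IR-7W 1 was its highest carcinoma. Markers of other cell types moved with it in part. Of 16 endothelial markers, 6 were higher and 0 lower in IR-3W at an unadjusted p under 0.05, against 5.66% and 5.30% of all genes, with a median of 0.82. That median was 0.15 within slide 2. The endothelial level was high in IR-3W 3 (1.16) and IR-3W 4 (1.08), while IR-3W 1 (-0.17) and IR-3W 2 (-0.09) lay inside the IR-7W range of -1.01 to 0.61. Of 18 luminal epithelial markers, 0 were higher and 4 lower at that p, against the same shares, with a median of -0.67 (-0.45 within slide 2). The luminal level was 0.23, -0.21, -0.68 and -0.61 in IR-3W 1 to 4, against -0.06 to 0.49 in IR-7W. The part of these cell types in the matrix result was not tested.

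Proteases and their inhibitors reshape the matrix, and Timp1, a secreted inhibitor of matrix metalloproteinases, passed. Timp1 stood at 5.25, 5.10, 5.21 and 5.83 in IR-3W against 2.55, 3.18 and 3.78 in IR-7W. The IR-3W carcinomas were close together and well clear of the others, and Timp1 rose by 2.19 ± 0.30, or 4.56-fold (adjusted p = 0.0439; 2.00 within slide 2). Of 22 genes for matrix metalloproteinases and their regulators, Timp1 passed, and 10 were higher and 0 lower at an unadjusted p under 0.05, against 5.66% and 5.30% of all genes. The median was 0.80 (0.90 within slide 2). Plaur, the receptor of the urokinase protease, had 1.48 ± 0.32 (adjusted p = 0.102), Timp2, a further inhibitor, 1.08 ± 0.25 (adjusted p = 0.119) and Mmp23 2.00 ± 0.47 (adjusted p = 0.129). None of these 3 overlapped between the groups, where 1.54% of all genes had the IR-3W carcinomas above all others.

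Transcription factors and markers of mesenchymal cells, which fibroblasts express and carcinoma cells can acquire, had a median difference of 1.07 over 18 genes. None passed. At an unadjusted p under 0.05, 8 were higher and 0 lower, against 5.66% and 5.30% of all genes, and 5 lay above all IR-7W carcinomas, against 1.54%. Within slide 2 the median was 0.63, with 13 of 18 above 0, a sign fixed in advance for the 5 without overlap. Snai1, a repressor of epithelial adhesion genes, stood at 0.83, 1.59, 0.45 and 2.14 in IR-3W against -1.99, -0.96 and -0.28 in IR-7W (2.29 ± 0.41, adjusted p = 0.0725). Its second probe gave 1.30, so the probes disagree in size. It passed without IR-3W 1 (2.43, adjusted p = 0.0399), within a range of 0.00645 to 1 over the alternatives. S100a4, a calcium-binding protein of motile cells, had 2.17 ± 0.40 (adjusted p = 0.0755). Cdh11, the cadherin of mesenchymal cells, had 1.61 ± 0.33 (adjusted p = 0.0938), and Zeb2, a repressor akin in action to Snai1, had 1.85 ± 0.40 (adjusted p = 0.0999) but only 0.65 within slide 2.

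Genes outside the matrix also passed. Id3, an inhibitor of basic helix-loop-helix transcription factors that bone morphogenetic proteins induce, had the smallest adjusted p of the named genes (0.0306). It stood at 3.82, 4.22, 3.80 and 4.25 in IR-3W against 1.66, 2.12 and 2.39 in IR-7W. With little spread in either group, Id3 rose by 1.98 ± 0.22, or 3.93-fold, by 2.03 within slide 2, and by 1.94 and 1.90 on 2 further probes. Its relative Id1 was likewise without overlap, at 1.61, 1.36, 2.11 and 1.54 against -0.81, -0.21 and 0.63 (1.81 ± 0.33, adjusted p = 0.0755).

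Fgfbp1, which releases fibroblast growth factors from the matrix, and Il24, a cytokine of the interleukin 10 family, were not well above background on any IR-7W array, so only a bound can be given. Fgfbp1 stood at -2.84, 0.27, -3.59 and -2.99 in IR-3W, with IR-3W 2 far above the rest, and was measured at -7.25, -6.81 and -5.84 in IR-7W. It was at least 8.44-fold higher in IR-3W (adjusted p = 0.0468), the IR-3W mean being set against the detection floor of the IR-7W arrays. Without IR-3W 2 it was at least 4.68-fold higher (adjusted p = 0.0390; 0.00684 to 1 over the alternatives). Il24 stood at -3.22, -1.40, -2.17 and -3.04 in IR-3W and was measured at -7.36, -7.24 and -5.03 in IR-7W. It was at least 7.73-fold higher in IR-3W (adjusted p = 0.0408). Both were well above background on all 4 IR-3W arrays. The filter required this, since a gene had to be so on at least 4 arrays and no IR-7W array counted.

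Aox1, an aldehyde oxidase, stood at 0.43, 0.92, 2.18 and 1.72 in IR-3W against -2.33, -1.10 and -0.83 in IR-7W. It rose by 2.66 ± 0.41, or 6.30-fold (adjusted p = 0.0477; 1.71 within slide 2). Fxyd1, a regulator of the sodium pump also called phospholemman, stood at -0.89, -0.47, -0.09 and -0.44 against -3.13, -2.56 and -1.55. It rose by 2.01 ± 0.30, or 4.02-fold (adjusted p = 0.0468; 1.48 within slide 2), and for both genes the 2 lower IR-3W carcinomas were those of slide 2. Nol3, an inhibitor of cell death, stood at 0.93, 1.09, 0.46 and 1.71 against -1.09, -0.88 and -0.43. It rose by 1.83 ± 0.26, or 3.55-fold (adjusted p = 0.0439; 1.67 within slide 2).

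Popdc2 and Magix were the named genes that passed as lower in IR-3W carcinomas. Popdc2, a membrane protein that binds cyclic AMP and is best known in muscle, stood at -1.13, -2.29, -2.51 and -1.44 in IR-3W against -0.31, 0.45 and 0.77 in IR-7W. All 4 IR-3W carcinomas lay below all 6 others, and Popdc2 fell by 2.20 ± 0.32 on the log2 scale, or 4.60-fold (adjusted p = 0.0439; -1.65 within slide 2). Magix, a protein with a PDZ domain, was not well above background on any IR-3W array and met the filter only through IR-7W arrays. It was measured at -5.59, -5.68, -6.19 and -5.56 there and stood at -4.41, -3.83 and -3.46 in IR-7W. It was at least 2.40-fold lower in IR-3W (adjusted p = 0.0439), but with normexp, another background correction, its difference was 0.61, the opposite sign.

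The remaining 12 genes that passed are probes without a gene symbol here, 10 higher and 2 lower in IR-3W. Those higher included A_42_P585695, with a mean of 3.49 ± 0.34 (SD, n = 4) in IR-3W against 0.92 ± 0.48 (SD, n = 6) in IR-7W (difference 2.57 ± 0.28 SE, adjusted p = 0.0306). A_44_P1019961 had 2.88 ± 0.33 SE with the same adjusted p and only 1 of the 6 IR-7W arrays measured it well above background. The 2 lower probes, A_44_P399224 and A_44_P210994, were not well above background on any IR-3W array.

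**Figure D2:**
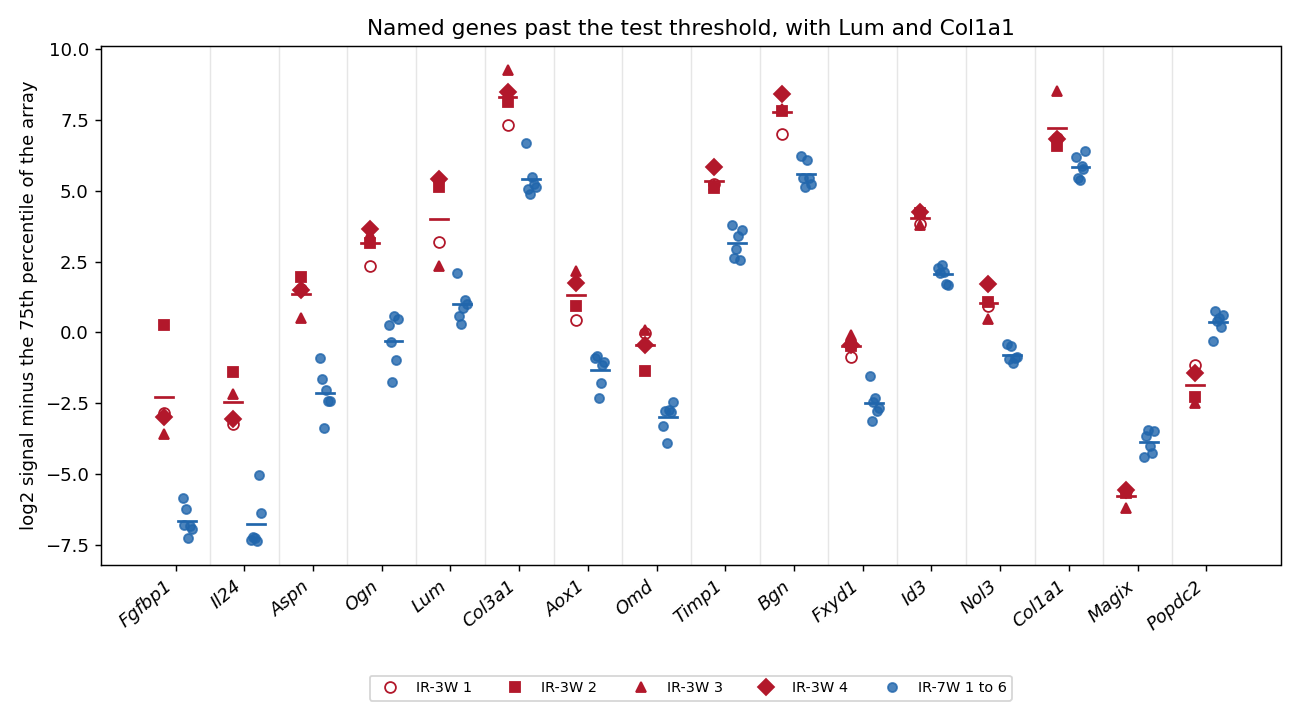
Log2 signal minus the 75th percentile of the array (y axis) for the 14 named genes that passed, with Lum and Col1a1, which did not (x axis). Red symbols are the 4 IR-3W carcinomas, each with its own shape, blue points the 6 IR-7W carcinomas, and bars the group means; the groups are apart for each gene, and Magix and Popdc2 alone are lower in red.

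Receptors and pioneer factors of hormone-responsive luminal cells gave no gene that passed. Of 12 tested, 5 were lower and 0 higher in IR-3W at an unadjusted p under 0.05, against 5.30% of all genes lower. Their median was -0.60 (-0.49 within slide 2), but 0.17 with normexp, which moved the median of all genes to 0.35. Prlr, the prolactin receptor, stood at 0.26, -3.45, -1.71 and -3.0 in IR-3W against 0.34, 0.80 and 1.67 in IR-7W. IR-3W 1 lay just below the lowest IR-7W carcinoma and the other 3 far below, and the difference was -2.87 ± 0.63 (adjusted p = 0.102; -2.63 within slide 2). Foxa1, a pioneer factor that opens chromatin for the oestrogen receptor, stood at -3.50, -8.10, -6.40 and -7.55 in IR-3W against -4.95, -3.94 and -2.67 in IR-7W. IR-3W 1 lay inside the IR-7W range and the others below it. Foxa1 was well above background on 1 of the 4 IR-3W arrays (IR-3W 1) and on 5 of the 6 IR-7W arrays, and the measured difference of -2.56 ± 0.80 did not pass (adjusted p = 0.252) and turned to 0.46 with normexp.

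Pgr, the progesterone receptor, stood at -3.50, -2.49, -5.18 and -5.06 in IR-3W against -2.80, -1.97 and -0.36 in IR-7W. The groups overlapped through IR-3W 2, the difference was -2.25 ± 0.61 (adjusted p = 0.184), and within slide 2 it was -0.70. Pgr was well above background on IR-3W 1, on 1 of the other 3 IR-3W arrays and on all 6 IR-7W arrays, so its size is uncertain. Esr1, the oestrogen receptor, was dim and met the filter only through IR-7W arrays. The 6 IR-7W arrays all measured it well above background (-4.46, -4.08 and -2.81), and 0 of the 4 IR-3W arrays did (-5.24, -7.55, -4.18 and -6.97). Set against the detection floor it was at least 2.35-fold lower in IR-3W, but it did not pass (adjusted p = 0.233) and its sign turned with normexp (0.62).

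Areg, which encodes amphiregulin and is induced by oestrogen in the gland, was bright in both groups. It stood at 5.65, 3.13, 3.90 and 3.36 in IR-3W against 6.28, 6.48 and 8.01 in IR-7W. The groups did not overlap, with IR-3W 1 nearest to the IR-7W carcinomas, and the difference was -2.79 ± 0.52, a 6.94-fold higher level in IR-7W that did not pass (adjusted p = 0.0759; -2.49 within slide 2). Of 7 ErbB ligands tested, 0 passed, 1 was lower (Areg) and 0 higher at an unadjusted p under 0.05, against 5.30% and 5.66% of all genes, with a median of -0.10. Ereg, the ligand epiregulin, had -2.02 ± 0.94 (adjusted p = 0.471) and was well above background on only 2 of the 4 IR-3W arrays. Hbegf, the heparin-binding ligand, had 1.14 ± 0.53 (adjusted p = 0.465). Among 12 ErbB receptors and feedback genes, 0 passed and 2 were lower at that p, against 5.30% of all genes. Erbb3, the ErbB receptor that signals through its partners, had -0.99 ± 0.29 (adjusted p = 0.212).

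Cited1, a coactivator of the oestrogen receptor in mammary epithelium, differed widely among the IR-3W carcinomas. It stood at 7.40, 2.40, -1.69 and 2.04 in IR-3W against 5.67, 6.70 and 8.0 in IR-7W. IR-3W 1 had the level of the IR-7W carcinomas and the other 3 lay far below, and the difference of -4.14 ± 1.35 did not pass (adjusted p = 0.28). Over 17 oestrogen and progesterone responsive genes the median was 0.18, with 2 higher and 2 lower at an unadjusted p under 0.05, against 5.66% and 5.30% of all genes. That median was below 0 in 6 of the alternatives, with -0.11 as the lowest. The mean over the list differed from the median in sign, since its summed level ran from -0.45 to 0.03 in IR-3W and from -0.25 to 0.38 in IR-7W, with IR-3W lower on average. Igfbp4, a binding protein of insulin-like growth factors, was among the higher ones at 5.13, 5.18, 5.29 and 6.12 against 3.33, 3.50 and 4.65 (1.68 ± 0.31, adjusted p = 0.0759), with 0.83 within slide 2. It passed without IR-3W 1 (1.78, adjusted p = 0.0452) and without IR-7W 1 (1.86, adjusted p = 0.0369), in a range of 0.00812 to 1 over the alternatives.

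Tbx3, a T-box factor needed for the bud, stood at 2.01, -0.58, -0.55 and -0.16 in IR-3W against 1.42, 2.24 and 3.32 in IR-7W (-2.08 ± 0.57, adjusted p = 0.184). Msx2, a homeobox factor of the bud, stood at -0.28, -5.08, -6.36 and -5.02 against -2.02, -1.06 and 0.41 (-3.39 ± 1.03, adjusted p = 0.24). For both, IR-3W 1 lay inside the IR-7W range and the other 3 below it. Wnt4, a Wnt ligand induced by progesterone, had -1.42 ± 0.66 (adjusted p = 0.471), again with IR-3W 1 high at 3.82. Of the 32 bud and lineage regulators tested, 0 passed, and 3 were higher and 5 lower at an unadjusted p under 0.05, against 5.66% and 5.30% of all genes, with a median of -0.38 (-0.03 within slide 2). The level of the whole list did not set IR-3W 1 apart, at 0.01, -0.17, -0.42 and -0.14 in IR-3W 1 to 4 against -0.33 to 0.59 in IR-7W. Gli2, a factor of hedgehog signalling expressed in stroma, was among the higher ones (1.84 ± 0.37, adjusted p = 0.0887).

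Several of these genes passed when IR-3W 1 was left out. Prlr then fell by 3.62 and Areg fell by 3.34 (both adjusted p = 0.0126), Msx2 fell by 4.69 (adjusted p = 0.0126), Cited1 fell by 5.76 (adjusted p = 0.0207) and Tbx3 fell by 2.69 (adjusted p = 0.025). Msx2 was well above background on 2 of these 3 IR-3W arrays. Foxa1 was so on 0 of the 3, and it was at least 2.45-fold lower there (adjusted p = 0.02). Over all alternatives their adjusted p-values ran from 0.00693 for Prlr, 0.00704 for Areg, 0.0126 for Msx2, 0.0199 for Foxa1, 0.0207 for Cited1 and 0.0211 for Tbx3 up to 1 for each. Pgr (-2.43, adjusted p = 0.144) and Esr1 (at least 2.30-fold lower, adjusted p = 0.163) did not pass without it. IR-3W 1 was chosen here as the array that the values of these genes set apart, so the fit without it describes the other 3 IR-3W carcinomas and is no test of the group. Where the other 3 IR-3W carcinomas all lay below the IR-7W carcinomas (1098 genes), IR-3W 1 did not in 752 (68.5%). The corresponding share was 62.0% for IR-3W 2, 40.7% for IR-3W 3 and 27.2% for IR-3W 4. In the other direction, where the other 3 all lay above, the share was 53.7% for IR-3W 1, 44.5% for IR-3W 2, 49.1% for IR-3W 3 and 23.8% for IR-3W 4. The luminal level of IR-3W 1, given above, lay inside the IR-7W range, and those of the other 3 lay below it. IR-3W 1 also had the highest level of macrophage and myeloid markers (1.74, against -0.85 to 0.06 in IR-7W and -0.65 to 0.52 in the other IR-3W carcinomas). Its level of mast cell markers was 2.54 and of skeletal muscle markers 2.10, each within the IR-7W range. The part of these cells in the position of IR-3W 1 was not tested.

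**Figure D3:**
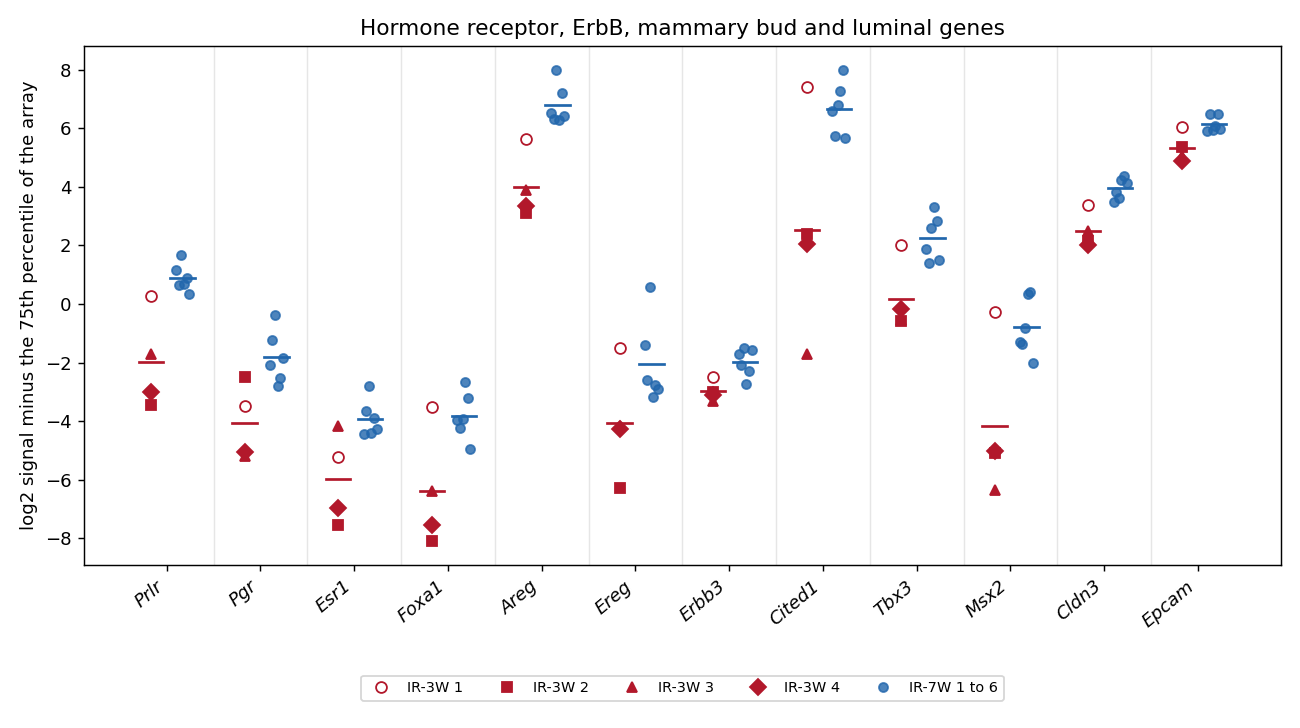
Log2 signal minus the 75th percentile of the array (y axis) for hormone receptor, ErbB, mammary bud and luminal genes (x axis), none of which passed over all 10 arrays. Symbols are as in the plot of the genes that passed; the open circle, IR-3W 1, lies at or near the blue IR-7W points for Foxa1, Cited1, Tbx3 and Msx2 while the filled red symbols lie below.

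Among luminal epithelial markers, Cldn3, a tight junction claudin, stood at 3.37, 2.14, 2.50 and 2.01 in IR-3W against 3.50, 3.97 and 4.39 in IR-7W. It had -1.44 ± 0.30 without overlap (adjusted p = 0.0948) and passed without IR-3W 1 (-1.73, adjusted p = 0.0207; 0.00868 to 1 over the alternatives). Wfdc2, a secreted protease inhibitor of epithelia, had -1.33 ± 0.45 (adjusted p = 0.293) and also passed without IR-3W 1 (-1.82, adjusted p = 0.0382, the smallest of its alternatives, which reached 1). Epcam, at 6.05, 5.37, 5.05 and 4.90 in IR-3W against 5.90, 6.03 and 6.50, had -0.81 ± 0.26 (adjusted p = 0.272), and Spint1, a membrane protease inhibitor, -0.82 ± 0.26 (adjusted p = 0.257). The 17 basal and myoepithelial markers were mixed, with a median of -0.30 (0.25 within slide 2), 0 passing, and 2 higher and 3 lower at an unadjusted p under 0.05, against 5.66% and 5.30% of all genes. Cnn1, the contractile protein calponin, stood at -1.23, -2.43, -3.19 and -0.23 in IR-3W, below the narrow IR-7W range of 0.37 to 0.68 (-2.27 ± 0.48, adjusted p = 0.0948). Mylk, the myosin light chain kinase, had -1.24 ± 0.34 (adjusted p = 0.181), and its second probe gave -0.51.

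Of 15 FGF and PDGF pathway genes, Fgfbp1 passed and no other did. At an unadjusted p under 0.05, 4 were higher and 2 lower, against 5.66% and 5.30% of all genes, with a median of -0.05 and a lowest difference of -2.04. Fgf2, basic fibroblast growth factor, was dim and stood at -3.99, -3.13, -4.60 and -3.06 in IR-3W against -6.64, -5.70 and -5.59 in IR-7W, and 2 of the 6 IR-7W arrays measured it well above background. The difference was 2.29 ± 0.37 (adjusted p = 0.0604), and it passed without IR-3W 1 (2.38, adjusted p = 0.0298; 0.00645 to 1 over the alternatives). The receptors Pdgfra and Pdgfrb, both expressed by fibroblasts and the second by pericytes, had 1.46 ± 0.29 (adjusted p = 0.0871) and 1.97 ± 0.44 (adjusted p = 0.112). Pdgfrb passed without IR-3W 1 (2.34, adjusted p = 0.0311; 0.00945 to 1 over the alternatives). Igfbp6, a binding protein with a preference for insulin-like growth factor II, had 1.16 ± 0.23 (adjusted p = 0.0913) and passed without IR-3W 1 (1.27, adjusted p = 0.0489; 0.00872 to 1). Over 19 genes of the growth hormone and IGF axis the median was -0.04, with 4 higher and 2 lower at an unadjusted p under 0.05, against 5.66% and 5.30% of all genes. Their differences ran from -1.02 to 1.68. The 23 Wnt pathway genes (median -0.05; 2 higher and 3 lower at that p) and the 14 Notch pathway genes (median 0.15; 2 higher and 1 lower), set against the same shares, had no gene that passed. Both lists held differences in both directions, from -2.23 to 1.79 for Wnt and from -0.93 to 1.12 for Notch. Among the higher ones, Wnt10a, a canonical Wnt ligand, had 1.33 ± 0.41 (adjusted p = 0.247), and Heyl, a Notch target of perivascular cells, 1.12 ± 0.35 (adjusted p = 0.245).

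Immune genes gave no call, and much of their variation lay within the IR-3W group. Of 25 macrophage and myeloid markers, 5 were higher and 0 lower in IR-3W at an unadjusted p under 0.05, against 5.66% and 5.30% of all genes, with a median of 0.53 (0.85 within slide 2). Fcgr3a, an antibody receptor, stood at 2.65, 1.0, 1.79 and 0.80 in IR-3W against -0.64, 0.04 and 0.82 in IR-7W (1.48 ± 0.42, adjusted p = 0.197). Fcer1g, the signalling chain of such receptors, had 1.16 ± 0.38 (adjusted p = 0.283), Trem2, a lipid receptor of macrophages, 1.35 ± 0.48 (adjusted p = 0.326) and Tyrobp, its signalling partner, 0.96 ± 0.36 (adjusted p = 0.362). IR-3W 1 was the highest array for each of these 4 genes. Of 23 chemokines and inflammatory mediators, 6 were higher and 0 lower at that p, against the same shares, with a median of 0.64 (1.29 within slide 2). Csf1, the growth factor of macrophages, stood at 2.44, 1.56, 2.26 and 2.13 in IR-3W against 0.28, 1.01 and 1.42 in IR-7W, without overlap (1.09 ± 0.27, adjusted p = 0.145). Il1rn, the interleukin 1 receptor antagonist, had 1.60 ± 0.45 (adjusted p = 0.199).

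Of 31 interferon response and antigen processing genes, 6 were lower and 1 higher at an unadjusted p under 0.05, against 5.30% and 5.66% of all genes, and the median was -0.22, but 0.16 within slide 2. Usp18, a brake on interferon signalling, had -1.25 ± 0.30 (adjusted p = 0.148), with 1 IR-7W array missing, and Tap1, the peptide transporter of antigen presentation, had -0.77 ± 0.26 (adjusted p = 0.293). The higher gene was Cxcl10, a chemokine that interferon induces, with 1.29 ± 0.42 (adjusted p = 0.28). The 24 T and NK cell markers had a median of 0.01, 0 higher and 2 lower at that p (5.66% and 5.30% of all genes), with Ccl5, a chemokine of T cells, at -1.36 ± 0.45 (adjusted p = 0.281). Of 10 mast cell markers, 0 reached that p, and the median of -1.48 came with levels from -2.72 to 2.54 in IR-3W and from -2.74 to 2.81 in IR-7W. Tpsb2, a mast cell tryptase, stood at 2.65, -4.01, -3.09 and -1.50 in IR-3W against -3.31, 1.76 and 3.20 in IR-7W (-1.95 ± 1.62, adjusted p = 0.714), and Cpa3, a mast cell carboxypeptidase, behaved much the same (-2.13 ± 2.17, adjusted p = 0.776). These carcinomas thus differed in mast cell genes mainly within each group.

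**Figure D4:**
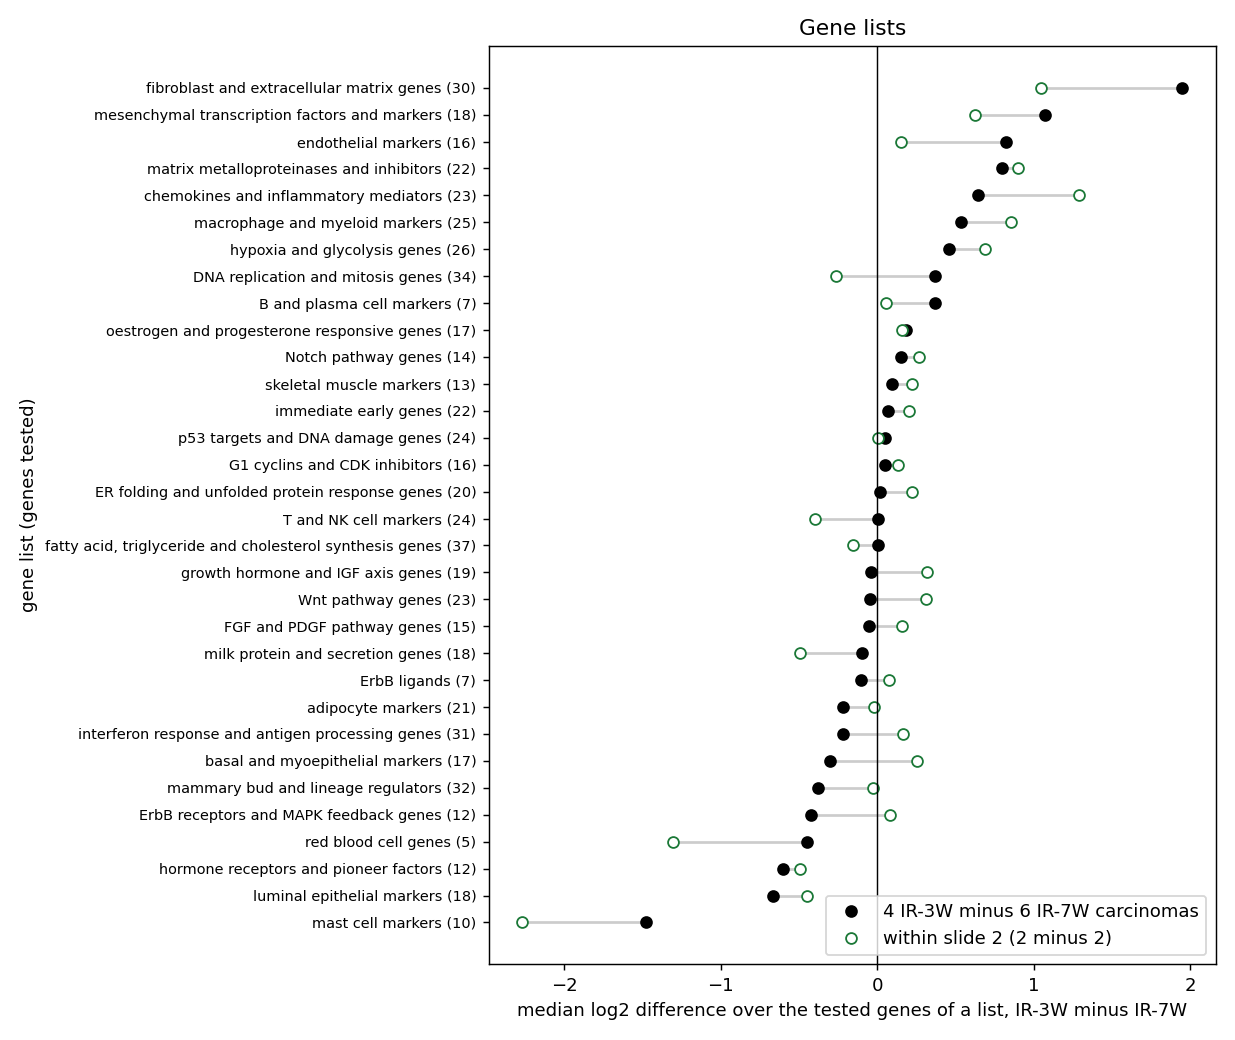
Median log2 difference between IR-3W and IR-7W carcinomas over the tested genes (number in parentheses) of each of the 32 gene lists (y axis). Filled points are over all 10 arrays and open points within slide 2. Among filled points the matrix list is farthest to the right at 1.95 and mast cell markers farthest to the left at -1.48. For mast cell markers the arrays of both groups spread over the same range. Among open points, chemokines and inflammatory mediators (1.29) lie right of the matrix list (1.05).

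Vessel, fat and secretory genes varied from tumour to tumour. Sox18, a transcription factor of endothelium, had 1.36 ± 0.52 (adjusted p = 0.362), Esam, an endothelial adhesion molecule, 1.03 ± 0.40 (adjusted p = 0.373) and Rasip1, which keeps vessel lumens open, 1.03 ± 0.41 (adjusted p = 0.39). Their differences within slide 2 were 0.55, 0.14 and 0.55. Of 21 adipocyte markers, 3 were higher and 0 lower at an unadjusted p under 0.05, against 5.66% and 5.30% of all genes, although the median was -0.22. Their level was 1.97 in IR-3W 3 and between -0.64 and -0.26 in the other IR-3W carcinomas. Cfd, the adipocyte protease adipsin, had 1.19 ± 0.43 (adjusted p = 0.34), and Rbp4, the carrier of retinol, had 2.20 ± 0.88 (adjusted p = 0.388). IR-3W 3 also had the highest level of milk protein genes, 3.30 against -2.44 in IR-3W 1. Glycam1, a milk mucin, illustrates this range at -0.60, -1.57, 10.82 and 4.87 in IR-3W against 3.85, 5.92 and 8.98 in IR-7W. Over 18 milk protein genes the median was -0.10, and 0 reached an unadjusted p under 0.05.

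Lists tied to growth and to radiation damage gave few differences. Of 34 DNA replication and mitosis genes, 0 reached an unadjusted p under 0.05, and the median was 0.37 over all arrays but -0.26 within slide 2. The level of these genes was 1.35 in IR-3W 2 and -0.74 in IR-3W 1, against -1.05 to 1.03 in IR-7W. Of 24 p53 targets and DNA damage genes, 1 was higher and 1 lower at that p, against 5.66% and 5.30% of all genes, with a median of 0.05. The higher gene was Atm at 0.55 ± 0.24 (adjusted p = 0.444), but its second probe gave -0.44, the opposite sign. The lower gene was Btg2, an antiproliferative target of p53, at 4.28, 2.72, 2.14 and 2.28 in IR-3W against 3.76, 4.02 and 5.04 in IR-7W (-1.36 ± 0.43, adjusted p = 0.256). It passed without IR-3W 1 (-1.83, adjusted p = 0.0294; 0.0216 to 1 over the alternatives). Among 16 G1 cyclins and CDK inhibitors, 1 was higher at that p (5.66% of all genes were), Cdkn2d, an inhibitor of the kinases that drive G1, with 0.79 ± 0.22 (adjusted p = 0.197). Of 22 immediate early genes, 2 were higher and 4 lower at that p, against 5.66% and 5.30% of all genes, with a median of 0.07. Fosl1, an AP-1 subunit, was among the higher ones at 2.08 ± 0.68 (adjusted p = 0.284). Fos, another AP-1 subunit, was among the lower ones at -0.93 ± 0.36 (adjusted p = 0.373), and Btg2 had the lowest difference of this list.

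Metabolic lists were also without a gene that passed. Of 26 hypoxia and glycolysis genes, 4 were higher and 0 lower at an unadjusted p under 0.05, against 5.66% and 5.30% of all genes, with a median of 0.46 (0.69 within slide 2), and IR-3W 2 had the highest level at 1.30. P4ha2, a collagen prolyl hydroxylase that the matrix list also holds, had 1.05 ± 0.33 (adjusted p = 0.254). The 37 fatty acid, triglyceride and cholesterol synthesis genes had 0 at that p in either direction and a median of 0.00. The 20 genes of protein folding in the endoplasmic reticulum had 1 higher and a median of 0.02. B and plasma cell markers (7 tested, median 0.37), red blood cell genes (5 tested, 1 lower, median -0.45) and skeletal muscle markers (13 tested, 1 higher, median 0.09) completed the lists, against 5.66% of all genes higher and 5.30% lower at that p.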

How the data were processed

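Expression was measured on Agilent rat arrays of 1 colour (Cy3, per the labels). Scanner output came from Agilent Feature Extraction, version 10.7.3.1, and the deposited processed signal is a linear, background-subtracted intensity per the file headers. Its log2 was taken and the 75th percentile of the array, over the 43379 spots that are not controls, was subtracted. Control and outlier spots were left out, saturated spots kept, and spots of 1 probe averaged. Probes well above background on at least 4 of the 10 arrays were kept, with the brightest probe of a symbol (RefSeq annotation of GRCr8, matched by accession without version: 16815 of 41012 probes). This gave 25204 genes, 10183 of them with a symbol, and 455 with a missing value on some array. An array value left out as an outlier was treated as missing in the fit, and nothing was imputed.

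The groups were fitted with limma 3.58.1 (lmFit, eBayes) in R 4.3.3. Files were read by data.table, version 1.17.8. P-values are two-sided and adjusted by Benjamini-Hochberg over all genes. The steps were tested on simulated data. Where no array of a group measured a gene well above background, the text gives "at least N-fold". There the mean of the brighter group was set against a floor, which on each array is the weakest signal with that call or, where higher, the signal of the gene itself. The bound takes no account of the scatter between samples. An adjusted p printed beside a bound belongs to the measured difference in limma, which rests on signals not well above background in the dimmer group. Precision is limited by how few arrays there are.

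The deposited log2 values, whose scale and centring are not stated in the sources used here (29.4 to 52.2% blank per array), served as an alternative. After a shift per array, 99.4 to 99.6% of its values equalled the scaled log2 signal relative to the mean of the normal arrays, with a tolerance of 0.01. Column medians ran from -0.20 to 0.05. The other alternatives were normexp, quantile normalization, 3 filters, probe averaging, all 13 arrays, array weights, slide and replicate blocks, a trended robust prior and leaving out each array. Normexp used the median spot signal, because the mean signal was not used here.

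Named genes have a symbol and are the up to 15 highest and 15 lowest that passed without overlap, up to 4 members with the smallest p of each of 32 lists, and a fixed set of hormone and ErbB genes. The text names a part of these, and 1 gene is not reported here. Col1a1, Lum, Fbln1, Fmod and Thbs1 were added after their values were seen. The comparison, its genes and the lists were chosen with earlier results of these data known. No coordinates of array probes are printed, since their annotation is of another build.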

Additional observations from a re-analysis of the deposited data

Results flagged for a closer look

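In 158 groups of 4 or 6 arrays, 5 held an array whose gap to its nearest neighbour was large against the range of the group, and chance gives about 1 in 20. Col3a1 was 6.67 in IR-7W 1, above the other IR-7W carcinomas. Col1a1 was 8.52 in IR-3W 3, above the other IR-3W carcinomas. Igfbp4 was 6.12 in IR-3W 4, above its group. Tbx3 was 2.01 in IR-3W 1, above its group and inside the range of the IR-7W carcinomas. Tap1 was 1.15 in IR-3W 3, below its group. Each of these differences between the groups kept its direction in all 24 alternatives. For Col3a1, Col1a1 and Igfbp4, whose groups did not overlap, this was fixed in advance where arrays were left out.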

How the results depend on the processing

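The number of genes that passed ranged from 0 to 316 when single arrays were left out. It was 2076 with normexp (1855 higher, 221 lower), 1457 with array weights (915 higher, 542 lower), 213 with all 13 arrays, 74 with the slide as a random block (correlation -0.0637), 49 with a trended robust prior, 42 when probes had to be well above background on all 10 arrays, 17 with the deposited values, 11 with quantile normalization and 4 with no filter. It was 0 with the slide as a fixed block (842 at an unadjusted p under 0.05), 0 within slide 2 alone (657) and 0 with the replicate number as a block (1522). The filter on 3 arrays gave 28, and averaging probes 26. Of the 26 genes, all measured with normexp, only 23 kept their sign with it and 23 passed. Among the 26, 26 passed with array weights, 26 with 13 arrays, 26 with the random block, 22 with the trended prior, 16 of 16 measured with the strictest filter, 12 of 19 with the deposited values, 11 with quantile normalization and 4 without a filter. The cause of these changes was not tested, other than that the fits within slide 2 rest on 4 arrays.

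Shared replicate numbers did not pair the arrays: the deviations of same-numbered arrays correlated at -0.23, -0.16, -0.04 and -0.20, so the block is only this check.

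The median of the matrix genes was 1.57 to 2.30 with single arrays left out, 1.05 with the slide as a fixed block and 1.05 within slide 2. The fixed block and slide 2 alone give the same difference for any gene, since slides 1 and 3 each held a single group. Over the named genes, 1510 values kept direction and side of the threshold, 174 lost the call, 114 gained it and 10 turned: with normexp Magix (0.61), Esr1 (0.62) and Foxa1 (0.46); for Fmod with array weights (0.37), the slide as a fixed block (0.017), within slide 2 (0.017) and without IR-3W 3 (0.14, in a range of -0.79 to 0.14 with single arrays left out); for Thbs1 with the deposited values (-0.11), without IR-3W 2 (-0.12) and without IR-3W 4 (-0.12, in a range of -0.12 to 1.05). Fos and Atm were not among the named genes of these counts. The dim array IR-3W 3 had a weight of 0.24 and IR-3W 4 of 3.64, and genes near background are limited by that signal.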
